A study of Mus musculus with 50 samples.

Results

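The peaks described here are m6A-seq peaks at the very start of a transcript that lie within 50 nt of a consensus motif, on transcripts that carry at least 1 further peak elsewhere. Of the 32009 peaks in the authors' deposited table, 2110 (6.59%) met this rule, on 2017 of 14219 transcripts. They made up 30.7% of the 6864 peaks that the table places at the transcript start. They were chosen by 3 measured properties of the deposited peaks: the annotated part of the transcript, the distance to the motif and the presence of another peak. Location at the start and closeness to the motif are therefore not results. No score entered the rule, although peaks were called from the same libraries that gave the scores. They are called motif-near start peaks below, and the other peaks of their transcripts are called partners.

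N6-methyladenosine (m6A) is a methyl mark on adenosines within messenger RNA, written by a nuclear complex in which METTL3 is the catalytic subunit and METTL14 helps to bind the RNA. The complex acts in a short sequence context, and the mark is best known from the region around the stop codon and from the 3' UTR, where reader proteins of the YTH family bind it and influence RNA decay and translation. At the cap, a different enzyme, PCIF1, methylates an adenosine next to the cap to m6Am, a mark that antibodies to m6A also bind. The deposited table does not separate these marks.

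The libraries came from mouse B cells that had been activated with LPS overnight. LPS is a component of bacterial outer membranes that makes B cells divide. Of the 50 samples in the series, 12 were m6A-seq libraries: RNA immunoprecipitated for m6A (IP) and RNA before pull-down (Input), 3 libraries each, for AIDcre Mettl3-flox/+ and for AIDcre Mettl3-flox/flox. All 4 groups thus carried AIDcre, a recombinase driven from the locus of AID, an enzyme that B cells switch on after activation, and the flox/+ cells carried 1 floxed allele too. The METTL3 protein remaining in flox/flox cells after this short culture was not measured here. The genotypes are those of the labels, and the design text names wild-type cells instead. The strain field of the 12 libraries runs from C57BL/7 to C57BL/18 with a different number for each library, whereas the 38 expression libraries, not analysed here, are labelled C57BL/6. The labels do not tell whether replicates are separate mice, so the p-values may measure technical spread only.

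Each peak has 1 pooled score for an arm named test and 1 for an arm named control, in 2 score versions, with an unadjusted p of the difference for each version. Neither the formula nor the scale of the scores is given in the sources used here, so all values are in score units. No genotype is attached to the arms. Here the test arm is taken as flox/+, since the authors' list of METTL3-dependent peaks holds peaks that score higher there, and the other arm, called the comparator arm below, as flox/flox. Directions between genotypes rest on that reading. With pooled scores alone, depth is unknown, the spread between replicates cannot be shown, and the only test over libraries is the authors' own p. Intervals on shares are exact Clopper-Pearson 95% intervals, and those on medians are exact order-statistic 95% intervals. They treat peaks as independent and cover counting error only.

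The transcript identifiers, which begin with uc, were paired with genes by none of the name tables used here, so peaks are given by identifier, and genomic positions are taken as mouse build mm9. No sequence is shown, because the genome used here was of another build: 164 peaks, 14 of them motif-near start peaks, lie past the ends of 7 of its chromosomes.

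The motif-near start peaks scored higher in the comparator arm, against the direction of the table as a whole. On the first version the test arm had a median score of 2.35 (quartiles 1.63 to 3.18) and the comparator arm one of 2.69 (2.02 to 3.43). The median difference per peak, test minus comparator, was -0.35 (95% interval -0.39 to -0.31, quartiles -0.78 to 0.13), and 1481 of the 2110 were higher in the comparator arm (70.2%, 68.2% to 72.1%). Over all peaks the median difference was 0.25 and 37.9% were higher in the comparator arm. The quartile range crosses 0, so a sizeable share of these start peaks went the other way.

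The second version gave the same peaks medians of 2.82 (test) and 2.93 (comparator). The median difference there was -0.15 (-0.18 to -0.12). The comparator arm was higher for 60.7% (58.5% to 62.8%), against 30.0% of all peaks. The median of all peaks itself differed between the versions, 0.25 on the first and 0.49 on the second. Set against those medians, the motif-near start peaks stood at -0.60 on the first version and at -0.64 on the second, so the distance from the table as a whole was similar although the distance from 0 was not. Over single peaks the versions agreed in part: 1080 were higher in the comparator arm on both, 427 in the test arm on both, 401 were below 0 on the first version alone and 197 on the second alone. Across the 2110 peaks Pearson's r between the versions was 0.61 and Spearman's rho 0.53, and both versions come from the same libraries.

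**Figure D1:**
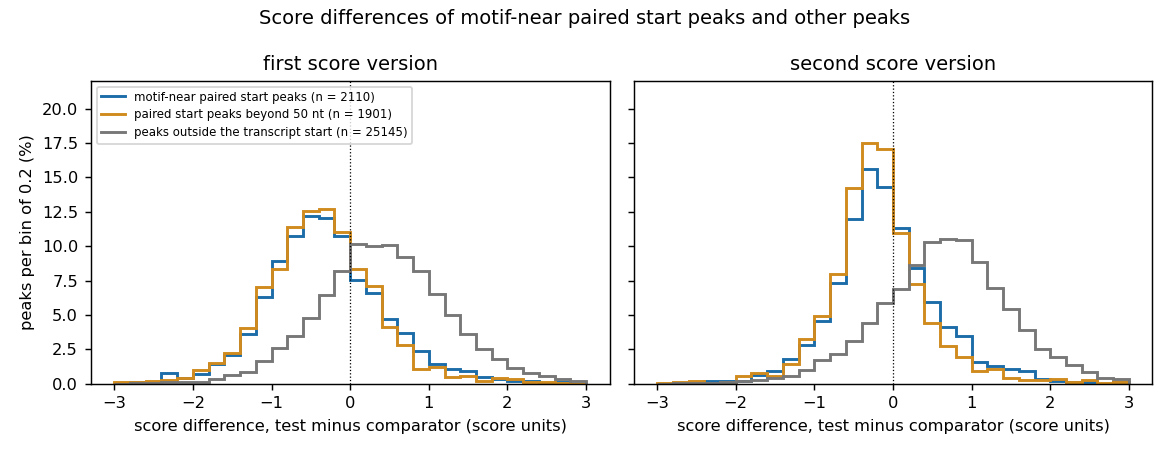
Score differences (test minus comparator, score units, horizontal axis) as the percentage of peaks per bin of 0.2, for the 2110 motif-near start peaks, the 1901 start peaks with a partner but beyond 50 nt of the motif, and the 25145 peaks outside the transcript start. Both sets of start peaks centre below 0 on both score versions (medians -0.35 and -0.39 on the first), whereas the other peaks centre above it (0.41); differences beyond 3 in either direction are outside the axis.

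By the authors' unadjusted p, 334 of the 2106 motif-near start peaks with a first-version p were higher in the comparator arm at p under 0.1 (15.9%, 14.3% to 17.5%), where 6.12% of all peaks were. In the test arm 60 were higher (2.85%, 2.18% to 3.65%), where 14.2% of all peaks were. Comparator-direction shares of other sets of start peaks were somewhat higher, with overlapping intervals: 17.9% (16.2% to 19.7%) with a partner but far from the motif, 18.2% (16.2% to 20.3%) near the motif without a partner and 17.5% over all start peaks. The second version gave 211 higher in the comparator arm (10.0%, background 3.86%) and 72 higher in the test arm (3.41%, background 21.3%). Under that p with the same direction on both versions there were 89 in the comparator direction (4.23%, background 1.37%) and 24 in the test direction (1.14%, background 8.77%). After Benjamini-Hochberg adjustment of the authors' p-values over all peaks of the table, none of the motif-near start peaks passed 0.1 on either version. The smallest adjusted p among them was 0.249 (first version) and 0.219 (second version). At an unadjusted first-version p under 0.05 there were 190 in the comparator direction (background 3.35%) and 31 in the test direction (background 8.18%), and under 0.01 there were 50 (background 0.838%) and 3 (background 1.89%). The second version gave 106 (background 2.01%) and 41 (background 12.9%) under 0.05, and 19 (background 0.319%) and 6 (background 3.49%) under 0.01. Of all peaks, 0 had an adjusted first-version p under 0.1 and 1 an adjusted second-version p under 0.1 (0.00312%). Single peaks named below are therefore descriptions, and none is a call that passed correction.

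The table also counts peaks per arm from 0 to 3, read here as the replicates in which a peak was called. Of the motif-near start peaks 848 were called in more comparator than test replicates (40.2%, 38.1% to 42.3%; 29.3% of all peaks) and 485 in more test than comparator replicates (23.0%, 21.2% to 24.8%; 38% of all peaks). All 3 replicates of both arms had the call for 469 of them (22.2%, 20.5% to 24.1%; 9.58% of all peaks), and no replicate of either arm had it for 133 (6.30%; 15.9% of all peaks). Called in all 3 comparator and in no test replicates were 60 (2.84%; 0.918% of all peaks), and the converse held for 13 (0.616%; 1.95% of all peaks). Calls and scores come from the same libraries and are not independent of each other. The most frequent pattern after full replication was a call in 1 comparator replicate and no test replicate, with 391 peaks. Other start peaks had similar shares with more comparator calls: 40.7% with a partner but far from the motif and 37.1% near the motif without one. Over all start peaks 39.1% had more comparator calls and 20.6% more test calls. Called in all 3 comparator and in no test replicates were 3.06% of all start peaks.

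**Figure D2:**
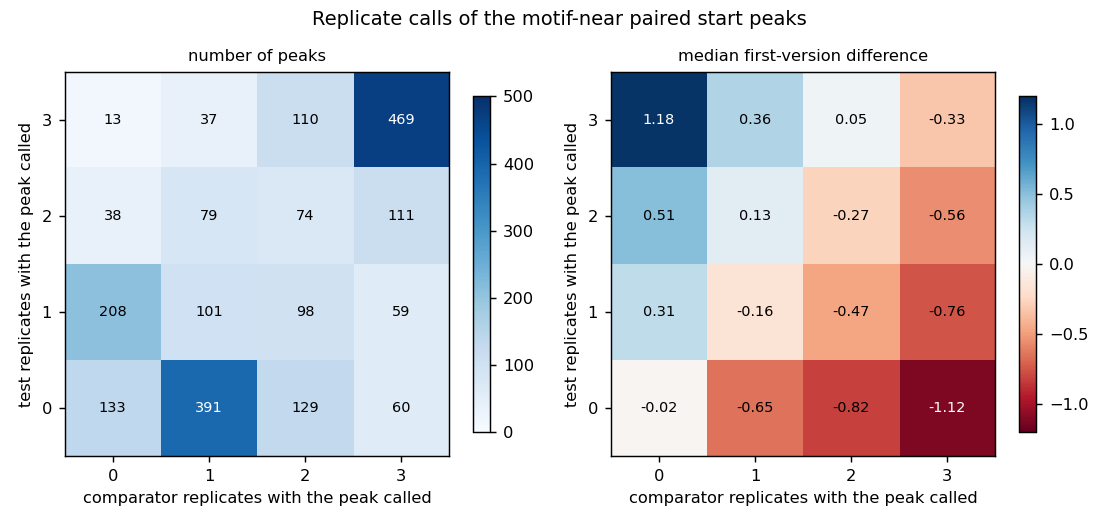
Left, the number of motif-near start peaks by the number of test replicates (vertical axis) and comparator replicates (horizontal axis) in which the peak was called. Right, the median first-version score difference of the same peaks. The corner called in 3 replicates of both arms holds 469 peaks with a median of -0.33. The values run from 1.18 (13 peaks called in all 3 test and no comparator replicates) to -1.12 (60 peaks called in all 3 comparator and no test replicates).

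The 469 peaks called in every replicate are the best replicated of the set. Their median scores in the test and comparator arms were 3.37 and 3.75 on the first version and 3.19 and 3.43 on the second. The median difference was -0.33 (quartiles -0.66 to 0.00) on the first version and -0.27 (quartiles -0.46 to -0.01) on the second. The comparator arm was higher for 74.8% of them (first version) and 76.5% (second version). For these peaks the versions thus lay closer together than for the set as a whole. Of the 469, 78 (16.6%) were higher in the comparator arm and 10 (2.13%) in the test arm at an unadjusted first-version p under 0.1. Over all peaks these shares were 6.12% and 14.2%, and over the 3065 peaks of the whole table called in every replicate 11.7% and 12.4%. Of those 3065, 1689 lie at the transcript start, the 469 among them, so they are not a background apart from start peaks.

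Replicate calls followed the direction of the peaks with the lowest p in most cases. Of the 334 first-version peaks higher in the comparator arm, 228 (68.3%) had more comparator calls, 15 had more test calls and 91 had equal numbers. Of the 60 higher in the test arm, 40 (66.7%) had more test calls and 3 more comparator calls, but 7 (11.7%) were called in no replicate at all, against 5 (1.497%) of the 334. The median difference of these groups was -1.06 and 1.11. The peaks of the test direction lay farther into the transcript, at a median position of 111.5 nt, than those of the comparator direction, at 80 nt.

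Position within the first 200 nt went with the size of the difference. The peaks lay between 12 and 199 nt from the transcript start, with a median of 87 nt (quartiles 62 to 123). The deposited table gives a best-sample position and, separately, a position used for the arms. These lay within 10 nt of each other for only 1287 of the motif-near start peaks (61.0%). A score may therefore belong to a place other than the one by which its peak was binned. How this bears on the bins of position and of motif distance was not tested. The 272 peaks in the first 50 nt had a median first-version difference of -0.58 (-0.68 to -0.48), and 77.2% were higher in the comparator arm. The next 50 nt held 1025 peaks with a median of -0.38 (-0.42 to -0.33), and the third 50 nt held 509 with -0.27 (-0.35 to -0.20). The 304 peaks past 150 nt had a median of -0.22 (-0.33 to -0.11), and 62.8% were higher in the comparator arm. The second version followed the same order, from -0.26 (-0.32 to -0.19) through -0.17 and -0.12 to 0.07 (-0.03 to 0.15), so in the last 50 nt its median was above 0 with an interval that includes 0. The median level in the comparator arm was 2.74 in the first 50 nt and 2.53 in the last, and that in the test arm 2.19 and 2.44.

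The counts by p followed as well: 64 of the first 272 peaks (23.5%) were higher in the comparator arm and 1 (0.368%) in the test arm at an unadjusted first-version p under 0.1, against 37 (12.2%) and 17 (5.59%) of the last 304. Over all peaks the shares were 6.12% and 14.2%. More comparator than test calls were recorded for 47.8% of the peaks in the first 50 nt and for 35.2% of those past 150 nt, and the reverse for 16.2% and 29.6%. For start peaks with a partner but far from the motif, the shares with more comparator calls went the other way, 39.4% and 48.0%. For start peaks near the motif without a partner they were 39.2% and 28.7%. Start peaks with a partner but beyond 50 nt of the motif had first-version medians of -0.43, -0.40, -0.36 and -0.35 over the same 4 bins and second-version medians of -0.19, -0.23, -0.22 and -0.18. Their medians thus moved by less along the first 200 nt. Start peaks within 50 nt of the motif but with no partner had first-version medians of -0.36, -0.30, -0.20 and -0.05 in these bins. Their second-version medians were -0.24, -0.21, -0.10 and -0.04. A rise along the first 200 nt was thus not particular to motif-near start peaks with a partner. The differences between the gradients were not tested.

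**Figure D3:**
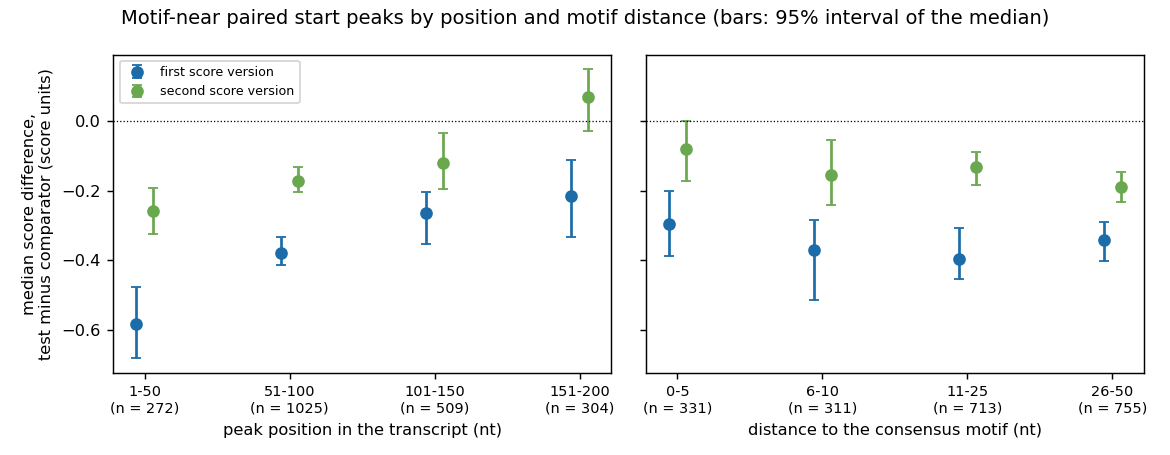
Median score difference (vertical axis, score units) of the motif-near start peaks by position in the transcript (left) and by distance to the motif (right), with 95% intervals of the median, for both score versions. The medians rise from the first to the last 50 nt on both versions (-0.58 to -0.22 and -0.26 to 0.07), and the bins of motif distance lie closer together.

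The sign of the motif distance was settled from the data: the peak position minus the distance fell inside the transcript for all 6857 start peaks with a distance, the smallest value being 3 nt, whereas position plus distance fell before the transcript for 2315. A negative distance therefore means a motif downstream of the peak. The motif lay downstream of 1101 of the motif-near start peaks, upstream of 980 and at the peak position itself for 29. The motifs stood at a median of 94 nt from the transcript start (quartiles 62 to 131, range 3 to 241). The side made little difference, with first-version medians of -0.35 for downstream and -0.37 for upstream motifs, and second-version medians of -0.15 and -0.16.

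Within the window of 50 nt these start peaks were spread more evenly around the motif than peaks of other parts of the transcript. A distance of at most 5 nt was found for 331 of the 2110 (15.7%, 14.2% to 17.3%), and the median distance was 19 nt. The same share was 35.1% (33.9% to 36.4%) for stop-codon peaks, 30.04% (28.7% to 31.4%) for 3' UTR peaks, 28.1% (27.2% to 29.03%) for coding-sequence peaks and 24.4% (21.5% to 27.5%) for 5' UTR peaks beyond the start. Those peaks had median distances of 10, 11, 12 and 15 nt. All start peaks within 50 nt of the motif, with or without a partner, had 16.3% (15.1% to 17.5%) and a median of 19 nt, so the value is one of start peaks in general. The letters of the motif are not in the table, and the threshold itself was part of the rule, so these shares are descriptions.

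Distance to the motif went with the difference less clearly than position did. The medians were -0.29 (-0.39 to -0.20) at 0 to 5 nt, -0.37 at 6 to 10 nt, -0.40 at 11 to 25 nt and -0.34 (-0.40 to -0.29) at 26 to 50 nt on the first version. The second version gave -0.08 (-0.17 to -0.00), -0.16, -0.13 and -0.19 (-0.23 to -0.15). Peaks closest to the motif also lay farther into the transcript, at a median of 96 nt against 84 nt for those at 26 to 50 nt. Within the first 100 nt the first-version median was -0.38 for peaks within 10 nt of the motif and -0.42 for those at 11 to 50 nt. Past 100 nt these were -0.27 and -0.22, so the order was not the same in both stretches. At the threshold itself, the 145 start peaks at 46 to 50 nt had a median of -0.38 and the 112 at 51 to 55 nt, just outside the rule, of -0.36. Exactly at 50 nt there were 25 with a median of -0.29, and at 51 nt 12 with a median of 0.09. At the other edge, the 103 motif-near start peaks at 180 to 199 nt had a median of -0.11, and the 143 motif-near peaks of other parts at 200 to 219 nt of -0.08.

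The partners of the motif-near start peaks numbered 4846, with a median of 2 per transcript and at most 18, and 835 of the 2017 transcripts had 1 partner. Coding sequence held 1940 of them, the stop-codon region 1551, the 3' UTR 1160 and the 5' UTR 195. Their median first-version difference was 0.45 (0.43 to 0.47), against 0.40 (0.38 to 0.41) for peaks outside the start on all other transcripts. Stop-codon partners had 0.68 and stop-codon peaks elsewhere 0.63, 3' UTR peaks 0.57 and 0.56, and coding-sequence peaks 0.23 and 0.24. The partners were thus close to other peaks of the same part. The exception was the 5' UTR. Partners there had 0.13 (0.01 to 0.26) and the 1010 peaks on other transcripts 0.00 (-0.06 to 0.06). The METTL3-dependent list held 25.1% (19.2% to 31.8%) of these partners and 16.3% (14.1% to 18.8%) of those other peaks. Counts by p did not lean the same way. At an unadjusted first-version p under 0.1, 21 of the 195 partners favoured the comparator arm and 11 the test arm. Among the 1010 other peaks these counts were 78 and 67.

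Set against the median of its own partners, the start peak had the lower first-version difference in 1669 of 2017 transcripts (82.7%, 81.03% to 84.4%), and it lay below every partner in 1411 (70.0%, 67.9% to 72.0%). The median of start minus partner was -0.80 (-0.85 to -0.76). The second version gave 81.7% and -0.83. In 1028 transcripts (50.97%) the start peak was below 0 and the partner median above it, and in 86 (4.26%) the converse held. Both were above 0 in 504 and both below it in 392. Since most start peaks lay below 0 and most partner medians above it, many opposite signs would arise without any relation within a transcript. Whether there were more than that was not tested. The same comparison for start peaks beyond 50 nt of the motif gave the lower difference in 88.8% (87.3% to 90.2%) of 1896 transcripts, with a median of -0.95. The share was thus below that of start peaks far from the motif, and a test over libraries was not possible.

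The gap depended on where the partner lay. Against partners around the stop codon the start peak was lower in 88.4% of 1219 transcripts, with a median gap of -1.06, and against those in the 3' UTR in 83.5% of 693, with -0.95. Against coding-sequence partners it was lower in 71.4% of 964, with -0.44. Against 5' UTR partners it was lower in 58.6% (50.5% to 66.4%) of 157, with a gap of -0.09 (-0.19 to -0.00). The second version gave 88.4%, 83.3%, 69.9% and 59.2%. Across transcripts the start and partner differences had a Pearson's r of 0.74 for the 157 with 5' UTR partners, 0.36 for the coding sequence, 0.33 for the stop codon and 0.26 for the 3' UTR. For the second version these were 0.51, 0.18, 0.01 and 0.02. These points share the same pooled libraries, and the values are given as descriptions.

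Distance along the transcript went with the gap as well, and it moved together with the annotated part: 5' UTR peaks were 41.4% of the nearest partners within 100 nt, 39.8% of those between 100 and 200 nt, 16.0% at 201 to 500 nt, 2.24% at 501 to 1000 nt and 0 beyond. For 58 transcripts whose nearest downstream partner was within 100 nt, the median gap was -0.13 (-0.20 to 0.02) and the start peak was the lower in 62.1% (48.4% to 74.5%). Between 100 and 200 nt, with 176 transcripts, the gap was -0.12, and at 201 to 500 nt, with 338, it was -0.44. At 501 to 1000 nt it was -0.87, at 1001 to 2000 nt -1.02 and beyond 2000 nt -0.98, where the start peak was the lower in 86.5% (82.7% to 89.7%) of 392. The partner's own median went from -0.09 within 100 nt to 0.72 beyond 2000 nt. Pearson's r between both peaks went from 0.89 within 100 nt through 0.81, 0.46 and 0.27 to 0.18 and 0.22. On the second version it went from 0.74 and 0.70 through 0.20 to values between -0.04 and 0.04 past 500 nt, while the gap went from -0.12 through -0.44 and -0.87 to -0.98 at 1001 to 2000 nt. Transcripts with a partner within 100 nt had their start peak at a median of 160 nt, against 84 nt for those with a partner past 2000 nt, so closeness and part of the partner and position of the start peak moved together, and their parts in the gap were not tested. Whether start peaks and partners within 200 nt of each other share RNA fragments, and so are not separate measurements, was not tested either.

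**Figure D4:**
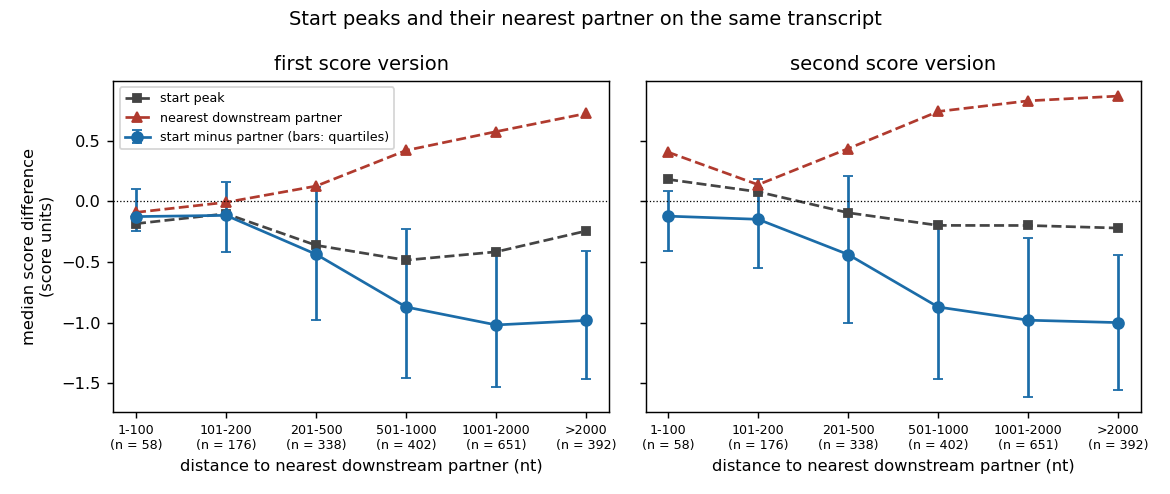
Median score differences (vertical axis, score units) of motif-near start peaks, of the nearest downstream partner on the same transcript, and of start minus partner with quartile bars, by the distance between the peaks (horizontal axis, nt). The gap widens from -0.13 within 100 nt to -0.98 beyond 2000 nt on the first version, where the partner median goes from -0.09 to 0.72 and the start median is below 0 in every bin, and it widens in the same way on the second version, where the start median is above 0 in the first and second bins.

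Calls on start peaks and partners were set against how often any partner was called. On the first version 331 transcripts had a motif-near start peak higher in the comparator arm at an unadjusted p under 0.1, and 98 of them (29.6%) also had a partner higher in the test arm at that threshold. The corresponding share among all 2017 transcripts was 32.5%, so such a partner was about as frequent beside these start peaks as beside any. Of the 59 transcripts whose start peak was higher in the test arm, 33 (55.9%) had a partner higher in the test arm and 2 (3.39%) had one higher in the comparator arm, where 6.30% of all 2017 had a partner of that direction. Beside the 331 comparator-direction start peaks, 49 (14.8%) had a partner higher in the comparator arm, above that 6.30%, and on the second version 12 of 210 (5.71%) did, where 3.42% of all had one. For the second version, 107 of 210 (50.95%) had the start peak and a partner in opposite directions, where 47.2% of all 2017 had a partner higher in the test arm. Of 69 transcripts with the start peak higher in the test arm, 28 (40.6%) had such a partner. The share beside test-direction start peaks was thus above that of all transcripts on the first version and below it on the second, and none of these differences was tested.

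The number of partners went with the start difference only slightly. Start peaks with 1 partner had a first-version median of -0.41 (-0.46 to -0.34), those with 2 or 3 -0.35 and those with 4 or more -0.27 (-0.35 to -0.19). With a partner around the stop codon that median was -0.35 and without one -0.38. On the second version the order was reversed, with -0.17 and -0.13. The METTL3-dependent list held 6.81% (5.49% to 8.34%) and 9.72% (7.80% to 11.9%) of these start peaks, and 28.1% of all peaks. Beside no, 1 and at least 2 partners in that list the first-version median was -0.31, -0.43 and -0.33.

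The authors' list of METTL3-dependent peaks held 168 of the motif-near start peaks (7.96%, 6.84% to 9.20%), where it held 28.1% of all peaks. Among start peaks with a partner but beyond 50 nt of the motif it held 107 of 1901 (5.63%, 4.64% to 6.76%). Among start peaks with no partner it held 139 of 1450 within 50 nt (9.59%, 8.12% to 11.2%) and 113 of 1396 beyond (8.09%, 6.72% to 9.65%). Listed motif-near start peaks were more frequent far from the cap: 10 of 272 (3.68%, 1.78% to 6.66%) in the first 50 nt and 41 of 304 (13.5%, 9.86% to 17.8%) past 150 nt. In these bins the list held 8.27% and 13.2% of start peaks near the motif without a partner. Of start peaks with a partner but far from the motif it held 5.68% and 6.57%. The listed share of motif-near start peaks was much the same beside no, 1 or at least 2 listed partners, at 7.98%, 8.04% and 7.77%. Of the 164 transcripts with a listed start peak 54.9% had a listed partner too, and of all 2017 transcripts 56.0% did.

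How the listed start peaks came into the list differed from the table as a whole. Every listed peak has an unadjusted p under 0.1 on at least 1 version and a higher test arm on at least 1, with no requirement that both come from the same version. Of the 168, 24 met p and direction on both versions, 36 on the first alone and 48 on the second alone. The remaining 60 (35.7%, 28.5% to 43.5%) took the p from one version and the direction from the other. Over all 9005 listed peaks this last group was 460 (5.11%, 4.66% to 5.58%). Among the 107 listed start peaks with a partner but far from the motif it was 43 (40.2%, 30.8% to 50.1%). The value is thus not particular to start peaks near the motif. Of the 168, 64 had the higher first-version score in the comparator arm and 19 the higher second-version score there. More comparator than test calls were recorded for 54 (32.1%), against 15.4% of all listed peaks. For the listed start peaks with a partner but far from the motif it was 38.3%. The median first-version difference of the 168 was 0.36 (quartiles -0.67 to 1.02).

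The rule turned around, with a higher comparator arm in place of a higher test arm, was met by 477 of the motif-near start peaks (22.6%, 20.8% to 24.5%; 10.7% of all peaks). Because p and direction may come from different versions, 83 of the 168 listed start peaks (49.4%) met the reversed rule as well, against 1189 of all 9005 listed peaks (13.2%). Start peaks with a partner but far from the motif met the reversed rule in 25.6% of cases. Of their 107 listed peaks, 61 (57.0%) met both rules. These counts follow from the scores that also made the list.

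Other start peaks had differences of the same sign. Start peaks with a partner but beyond 50 nt of the motif had a first-version median of -0.39 (-0.42 to -0.36) and a second-version median of -0.22 (-0.24 to -0.20). Start peaks within 50 nt of the motif but with no partner had -0.27 (-0.31 to -0.22) and -0.19 (-0.22 to -0.15). The motif-near start peaks thus stood between both on the first version, and above both, at -0.15, on the second. The quartiles of all 3 sets overlapped: -0.78 to 0.13 here, -0.81 to 0.05 far from the motif and -0.73 to 0.28 without a partner. Calls in 3 replicates of both arms were recorded for 27.2% of the first of these sets and 22.3% of the second, next to 22.2% of the motif-near start peaks with a partner.

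Named peaks illustrate the range. Among peaks with an unadjusted p under 0.1 and the same direction on both versions, the authors' deposited table gave the largest difference to the start peak of uc009uyi.1, on chromosome X at position 166416676, 174 nt into the transcript, scoring 3.24 (test) and 0 (comparator) with p = 0.0225, and second-version scores of 4.23 and 1.26 (p = 0.0143). It was called in 1 test replicate and in no comparator replicate. The start peak of uc008pvj.2, on chromosome 3 at position 88307184, came next in the authors' deposited table with scores of 3.01 and 0 (p = 0.0193), second-version scores of 3.60 and 1.56 (p = 0.00687), and no call in any replicate. Both peaks have a comparator score of exactly 0, so no ratio is given. For uc007enm.2, on chromosome 10 at position 19654416, the authors' deposited table has 1.92 and -0.86 (p = 0.00957) and second-version scores of 2.90 and 0.09 (p = 0.0235), again with no call in any replicate. The last of these 4, uc008dby.2 on chromosome 17 at position 56615791, had 3.45 and 1 (p = 0.0480) with 3.999 and 2.41 on the second version (p = 0.0250) in the authors' deposited table, and was called in 2 test replicates. All 4 are in the METTL3-dependent list, which follows from the p and direction by which they were chosen. Their support by replicate calls is thin.

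In the comparator direction, the authors' deposited table gave the most negative value to the start peak of uc008ofw.1, on chromosome 2 at position 175468109 and 4 nt from the motif, which scored -0.00 (test) and 2.66 (comparator) with p = 0.0207 and second-version scores of 0.23 and 2.08 (p = 0.0869). Its 3 partners all lie in the 3' UTR, are all in the METTL3-dependent list and have a median difference of 0.43. For uc009jkj.1, on chromosome 7 at position 125856172 and 2 nt from the motif, the authors' deposited table gives -0.06 and 2.48 (p = 0.0490), with 1.51 and 3.11 on the second version (p = 0.00390). Both peaks were called in 1 comparator replicate. Better replicated were uc007xhf.1, on chromosome 15 at position 89420852, with 1.27 and 3.61 in the authors' deposited table (p = 0.0313; second version 1.51 and 3.78, p = 0.0341), and uc008emq.2, on chromosome 18 at position 35862712, with 1.83 and 4.12 in the authors' deposited table (p = 0.0438; second version 1.21 and 2.94, p = 0.0973). These were called in all 3 comparator replicates, and in 0 and 1 test replicates. On uc008emq.2 the authors' deposited table also lists a stop-codon peak with the opposite sign of difference, scoring 2.45 and 1.19 (p = 0.00828) and 2.74 and 0.42 on the second version (p = 0.0298), called in 3 test replicates and no comparator replicate.

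The farthest departures from the partners were in the same direction. At the start of uc008gbv.2, on chromosome 19 at position 5024139, scores in the authors' deposited table were 1.15 and 3.61 (p = 0.0345), called in 0 test and 3 comparator replicates, while its stop-codon partner had 2.15 and 0.53 (p = 0.0174). The start difference was -2.46 and the median of its partners 1.54, a gap of -4.00. For uc009hin.2, on chromosome 7 at position 74790078, the gap was -3.99, from scores of 0.02 and 2.40 (p = 0.0721) in the authors' deposited table. The start peak of uc008ghc.1, on chromosome 19 at position 6077153, had 0.18 and 2.21 with the lowest unadjusted p of these, 0.000755, in the authors' deposited table, and was called in 0 test and 3 comparator replicates. Its second-version p was 0.141. For uc009mha.2, on chromosome 8 at position 77557678 and 1 nt from the motif, the authors' deposited table has -0.12 and 1.75 (p = 0.0374), called in 2 comparator replicates, and both partners, around the stop codon (p = 0.00722) and in the 3' UTR (p = 0.0146), were higher in the test arm. In the second version none of these 4 start peaks had a p under 0.1.

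In the opposite sense, 3 of the 4 start peaks farthest above their partners were uc008pvj.2, uc009uyi.1 and uc007enm.2, already given, with gaps of 2.87, 2.08 and 1.68. The other was uc009kwv.1, on chromosome 8 at position 13105171, where the authors' deposited table has 0.15 and -2.25 (p = 0.0211), second-version scores of 3.46 and 1.79 (p = 0.0328) and no call in any replicate. Its coding-sequence partner, called in all 3 replicates of both arms, had 4.02 and 4.48.

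Among start peaks called in all 3 replicates of both arms, the 4 with the highest mean score had first-version differences between -0.75 and 0.32, none with a p under 0.1. The highest mean score among these was at the start of uc008nsc.2, on chromosome 2 at position 162757319, with 7.28 and 7.59 in the authors' deposited table (p = 0.478) and 4.72 and 4.90 on the second version. Next came uc011wko.1, on chromosome 1 at position 52289966, with 6.67 and 6.35 (p = 0.372), for which the authors' deposited table lists a stop-codon partner with 3.59 and 1.65 (p = 0.0265) and 2.32 and 0.09 on the second version (p = 0.000787). On that transcript the stop-codon peak was thus higher in the test arm while the start peak differed by 0.32 in score. For uc008qui.1, on chromosome 3 at position 104442632, the authors' deposited table has 5.72 and 6.47 (p = 0.164), and for uc008oyt.1, on chromosome 3 at position 35653111, it has 5.92 and 6.21 (p = 0.704). The second-version differences of all 4 lay between -0.19 and -0.03.

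**Figure D5:**
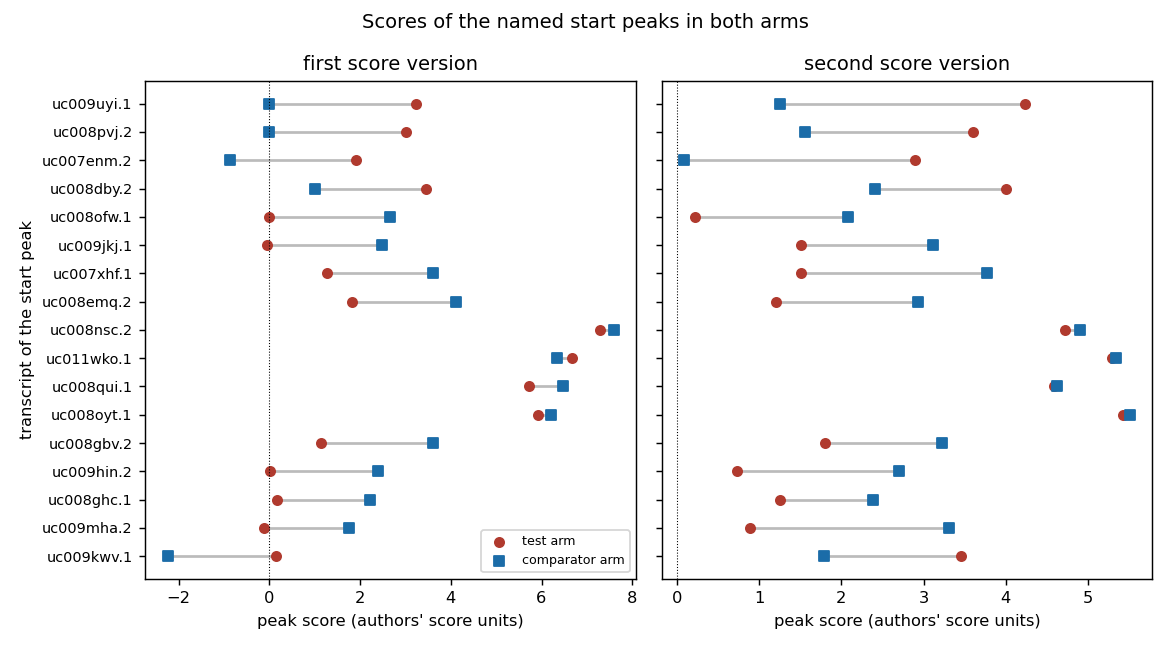
Peak scores (horizontal axis, authors' score units) of the 17 named start peaks in the test and comparator arms on both score versions, each as 1 pooled value per arm with no error. The groups that differ most have a low score in 1 arm, and the 4 peaks with the highest mean scores among those called in all replicates (first-version scores from 5.72 to 7.59) have first-version differences between -0.75 and 0.32.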

How the data were processed

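Polyadenylated RNA of LPS-activated B cells was barcoded and immunoprecipitated with an antibody to m6A, per the labels' protocols. The tools STAR, DESeq2, HTSeq, cutadapt and SAMtools 1.3.1 and the builds mm9 and mm10 are named, without their steps, per the submitters' processing notes. The caller of the peaks and the authors' test for the p-values were not given in the sources used here. Per the file headers, the deposited values are peak scores (1 pooled score per arm and version), their differences and an unadjusted p-value per version. Genomic positions pass the ends of GRCm38 chromosomes and were taken as mm9.

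The rule selected rows annotated TxStart within 50 nt of the motif on transcripts with another part listed. Partners were summarised by their median difference. Benjamini-Hochberg adjustment ran over all peaks of a version (31872 and 32009 p-values), and 4 of the start peaks had no first-version p. As the deposited scores are pooled, no test over libraries was made. Peaks to name were the 4 most extreme of each kind: largest and most negative difference (p under 0.1 and same sign on both versions), highest mean first-version score (called in 3 replicates of each arm), and farthest below and above the partners (first-version p under 0.1). No identifier matched a name table (0 matches), so the gene lists that were part of the rule for naming peaks were not used. Members, lists and rules were chosen with earlier results of these data known. Alternatives were other motif windows, p thresholds, score versions and subsets of peaks. Calculations used Python 3.11.15, numpy 2.4.6, pandas 2.3.3, scipy 1.17.1 and matplotlib 3.10.9, and were tested on simulated tables.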

Additional observations from a re-analysis of the deposited data

How the results depend on the processing

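Of 62 alternative values, 42 stayed within the interval, or for counts within 1.5 times, of the value reported, and 20 moved. A change of direction could be recorded only for the median difference and for the share of transcripts with the lower start peak. None of the alternatives for these changed direction. At an unadjusted p under 0.1, 334 of 2106 peaks were higher in the comparator arm and 60 in the test arm. A motif window of 25 nt gave 210 and 39 of 1353. Peaks above the median strength of all peaks gave 222 and 39 of 1423. Counts were compared as such and not as shares of the peaks left. A smaller set can therefore be recorded as moved at a similar share. Peaks called in at least 2 replicates of an arm gave 36 of 1277 higher in the test arm. The second version gave 211 of 2110 higher in the comparator arm. A p under 0.05 gave 190 and 31, a p under 0.01 gave 50 and 3, and an adjusted p under 0.1 gave 0 and 0. The share in the METTL3-dependent list was 1.14% when p and direction were required on both versions. The median difference was -0.31 above the median strength, -0.15 on the second version and -0.60 when centred on the median of all peaks, an alternative chosen after seeing the data. The share of transcripts with the lower start peak was 85.2% for peaks called in at least 2 replicates of an arm and 70.0% when every partner had to be higher. The share with more comparator calls was 35.8% and 31.1% in those called peaks and in the stronger peaks. The lower counts under a narrower window, a stricter p or a subset follow partly from fewer peaks or a stricter rule; the cause of the other shifts was not tested. Every member had its own genomic position, so keeping 1 per position changed nothing, and the table gives no strand. The values of that alternative are among the 42 that stayed, although they could not have moved. No paired analysis was possible because each arm has 1 pooled score, and replicates could not be left out for the same reason. Depth is unknown, and the precision of a single score cannot be set.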

Other observations

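More than 1 motif-near start peak was found on 92 transcripts (2 peaks on 91 and 3 on 1), spaced 52 to 149 nt apart with a median of 85 nt. On 55 of these all first-version differences were below 0, on 25 all were above 0 and on 12 both signs occurred. A further 49 transcripts held a motif-near start peak together with a start peak beyond 50 nt of the motif. In 16 cases neighbouring motif-near start peaks on different transcripts lay within 200 nt of each other in the genome, 9 of them within 50 nt, and whether such neighbours share RNA fragments was not tested.

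By chromosome, leaving out the 2 peaks on Y, the median first-version difference of the motif-near start peaks was between -0.57 (106 peaks on chromosome 4) and -0.11 (74 peaks on X). On the second version it was between -0.32 (67 peaks on chromosome 14) and 0.06 (73 peaks on chromosome 12), so the order of the chromosomes was not the same on both.

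Some first-version scores, such as 0 or 1, become whole numbers when multiplied by 3, to within 1e-09. This held for 15 test-arm and 23 comparator-arm scores of the motif-near start peaks, and for 332 (1.04%) and 1158 (3.62%) of the whole table, while no second-version score was of this kind. Without the 29 start peaks concerned the median difference was -0.36, and the counts at an unadjusted p under 0.1 were 334 higher in the comparator arm and 56 in the test arm. The exact comparator scores of 0 at uc009uyi.1 and uc008pvj.2 are among them.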
